A study of Mus musculus with 14 samples.

Results

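The BCL2 family decides whether the outer mitochondrial membrane is opened, the step that commits many cells to apoptosis. Anti-apoptotic members hold the membrane closed by binding the pore-forming effectors BAX and BAK1, and BH3-only members activate the effectors or occupy the anti-apoptotic members. In mice, conditional deletion of Mcl1 is known to deplete haematopoietic stem cells. Chromatin accessibility was described here at 10 family genes: the anti-apoptotic genes Mcl1, Bcl2, Bcl2l1 and Bcl2l2, the effectors Bax and Bak1, and the BH3-only genes Bcl2l11, Bbc3, Pmaip1 and Bid. A region belonged to a gene if its mean signal over all libraries was at least 50 and it overlapped the RefSeq bounds of the gene extended by 10 kb. That rule gave 60 of the 59189 tested regions, and no region was shared between members. Before the filter on low values, 314 of the 705361 deposited regions overlapped these loci, so 60 of 314 passed. The 3 members just inside the filter had mean signals of 51.8, 53.1 and 53.9, and the 3 just outside had 48.6, 48.5 and 48.3.

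Signal came from ATAC-seq, an assay of open chromatin by transposase cutting, in 14 libraries of sorted marrow cells from C57BL/6J mice. LT-HSC is the label for long-term haematopoietic stem cells and MPP3 for a myeloid-biased multipotent progenitor. Donors were Dnmt3a-flR878H/+, Npm1-frt/+ (titled Npm1c), Dnmt3a-flR878H/+;Npm1-frt/+ (written Dnmt3a;Npm1 below) or WT (Mx-Cre). Each cell type had 7 libraries: 2 per genotype, except that LT-HSC Dnmt3a and MPP3 Dnmt3a;Npm1 had 1. All donors were young, and 1000000 of their whole marrow cells were given to young CD45.1 hosts after a lethal dose of radiation, so every group is a transplant. Every host, WT included, received poly(I:C) 4 weeks later, tamoxifen after another 4 weeks, and was harvested 4 weeks after that. The labels name Mx-Cre, an inducible Cre active in blood cells and in other tissues, for the WT donors. The driver that recombines the frt allele was not given in the sources used here. Nothing in the labels says that libraries A and B of a group came from separate mice, so p-values measure the spread between libraries, which may be technical. In bulk libraries a smaller share of cells with an open region and less opening per cell cannot be told apart.

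Library totals of the deposited signal were 14683769 to 28748205, and 25.49% to 63.11% of it fell in tested regions. That share was 29.41% and 25.49% in LT-HSC Npm1, below every other library, against 56.55% and 40.66% in LT-HSC WT. On the first principal component, which held 24.9% of the variance, the LT-HSC Npm1 libraries lay at 153.2 and 147.9, and the other 12 libraries lay between -127.7 and 80.67. The cell type labels were set against marker loci. Of 55 regions at MPP3 and early myeloid genes, 3 were higher in MPP3 than in LT-HSC libraries, all at the myeloperoxidase gene Mpo (log2 differences 1.18 to 1.52). The summed signal of that list was 7579 to 10477 in MPP3 libraries and 5903 to 7844 in LT-HSC libraries, with the LT-HSC Npm1 libraries at 7844 and 7006 and the other LT-HSC libraries at 5903 to 6375. The 91 regions at LT-HSC genes gave 0 calls by limma between the cell types, with 12 at an unadjusted p under 0.05, a median of -0.17 and summed signals of 9245 to 11332 in MPP3 and 9282 to 12498 in LT-HSC libraries.

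RefSeq promoters of build GRCm38.p6 were found for 9 of the 10 genes, 14 in all, since some genes have several starts. Each member has 1 start region, the accessible region at a transcription start of the gene. The 250 bases before the start are shown for Mcl1 and Bcl2, whose start regions had the largest differences of the family between LT-HSC groups, for Bcl2l11, whose difference changed direction with the scaling, and for Bax, which stood apart from the other start regions. They are chr3:95658471-95658720 on the plus strand (Mcl1), chr1:106714291-106714540 on the minus strand (Bcl2), chr2:128125788-128126037 on the plus strand (Bcl2l11) and chr7:45466899-45467148 on the minus strand (Bax). Each window lies inside the start region of its gene, and capitals mark matches to the motifs searched.
Mcl1: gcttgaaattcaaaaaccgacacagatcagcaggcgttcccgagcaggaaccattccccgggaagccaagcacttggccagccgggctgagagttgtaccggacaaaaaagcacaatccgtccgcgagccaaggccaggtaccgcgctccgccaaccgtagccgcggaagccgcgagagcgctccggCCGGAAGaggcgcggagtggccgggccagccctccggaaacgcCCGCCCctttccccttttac
Bcl2: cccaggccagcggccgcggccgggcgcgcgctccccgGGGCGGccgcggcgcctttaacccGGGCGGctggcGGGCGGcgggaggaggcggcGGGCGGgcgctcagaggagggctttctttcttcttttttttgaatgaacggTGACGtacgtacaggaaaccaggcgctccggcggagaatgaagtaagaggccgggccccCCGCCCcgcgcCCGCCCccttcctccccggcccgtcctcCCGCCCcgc
Bcl2l11: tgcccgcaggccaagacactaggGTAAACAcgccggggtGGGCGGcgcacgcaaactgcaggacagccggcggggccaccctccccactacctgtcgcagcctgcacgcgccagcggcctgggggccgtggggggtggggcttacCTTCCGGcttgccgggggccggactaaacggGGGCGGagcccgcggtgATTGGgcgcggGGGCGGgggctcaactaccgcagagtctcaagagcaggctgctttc
Bax: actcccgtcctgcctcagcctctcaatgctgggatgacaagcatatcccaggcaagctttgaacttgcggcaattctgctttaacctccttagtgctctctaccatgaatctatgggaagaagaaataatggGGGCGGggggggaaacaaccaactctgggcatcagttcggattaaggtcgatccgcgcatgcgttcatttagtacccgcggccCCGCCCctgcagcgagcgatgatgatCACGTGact
The search covered both strands for the GC box GGGCGG, the CCAAT box, the TATA box TATAAA, the CRE core TGACG, the ETS motif CCGGAAG, the AP-1 motif TGANTCA, the E-box CACGTG, the GATA motif AGATAA and the FOXO motif TGTTTAC. No match overlaps another in the windows shown. The Mcl1 window held an ETS match at bases 188 to 194 and a GC box on the other strand. The Bcl2 window held 7 GC boxes and a CRE core. The Bcl2l11 window held a FOXO match at bases 24 to 30, beside GC boxes, an ETS match and a CCAAT box, and the Bax window held 2 GC boxes and an E-box at bases 242 to 247. GC boxes were in 10 of the 14 member promoters, against 32.7% of 32851 promoters searched. TATA boxes and AP-1 motifs were in 0 of 14, against 12.4% and 6.75% of all. The FOXO motif was in 2 of 14, 1 each of Bcl2l11 and Bbc3, against 3.17% of all. The member promoters had a median GC content of 65.2% and 20.5 CpG, against 52.4% and 6 in all promoters. A match is a run of letters and not evidence of binding.

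The 10 start regions each overlapped 250 bases before to 50 bases after a RefSeq start of the gene, and for Pmaip1 lay at a gene bound. Where a gene has several starts, its start region need not cover them all: a Bcl2l1 start lies outside Bcl2l1 region 1. Another 29 regions lay elsewhere inside a member and 21 in its flanks. Regions are numbered along each gene in the direction of transcription, except along Pmaip1, where they are numbered by coordinate. In mm10 the start regions of the anti-apoptotic genes were chr3:95658245-95659887 (Mcl1 region 3), chr1:106713414-106715078 (Bcl2 region 1), chr2:152829293-152832020 (Bcl2l1 region 1) and chr14:54883031-54884866 (Bcl2l2 region 2). Those of the effectors were chr7:45465807-45467274 (Bax region 1) and chr17:27027246-27029844 (Bak1 region 2), which also spans the start of Ggnbp1. Those of the BH3-only genes were chr2:128125065-128128320 (Bcl2l11 region 3), chr7:16308373-16314600 (Bbc3 region 2), chr18:66458141-66459499 (Pmaip1 region 1) and chr6:120916028-120917146 (Bid region 1). Another 4 regions covered the start of a neighbouring gene: Mcl1 region 7 (Gm52627), Bcl2l2 region 3 (Pabpn1), Bax region 2 (Ftl1) and Bak1 region 4 (Ggnbp1).

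Compared per kb of region, the start region of Mcl1 carried the most normalized signal, with a median of 374 per kb over 14 libraries (134 to 555). Bid followed with 343 (118 to 410), then Bcl2l1 with 272 (93.1 to 376), Bcl2l11 with 265 (152 to 444) and Bbc3 with 230 (99.0 to 314). Bcl2 had 216 (78.1 to 335), Bak1 146 (94.0 to 223), Pmaip1 143 (66.3 to 195), Bax 120 (93.7 to 223) and Bcl2l2 114 (61.6 to 201). The ranges of neighbours in this order overlapped throughout. Bcl2 exceeded Bak1 in 13 of 14 libraries and Bcl2l11 exceeded Bbc3 in 12, while Bcl2l1 exceeded Bcl2l11 in 3 of 14. The median over the 10 start regions was 223 per kb, against 174 over all regions at gene starts and 93.2 over the other member regions. LT-HSC Npm1 A or B was the lowest library for 9 genes, and for Bax it was LT-HSC Dnmt3a;Npm1 B.

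**Figure D1:**
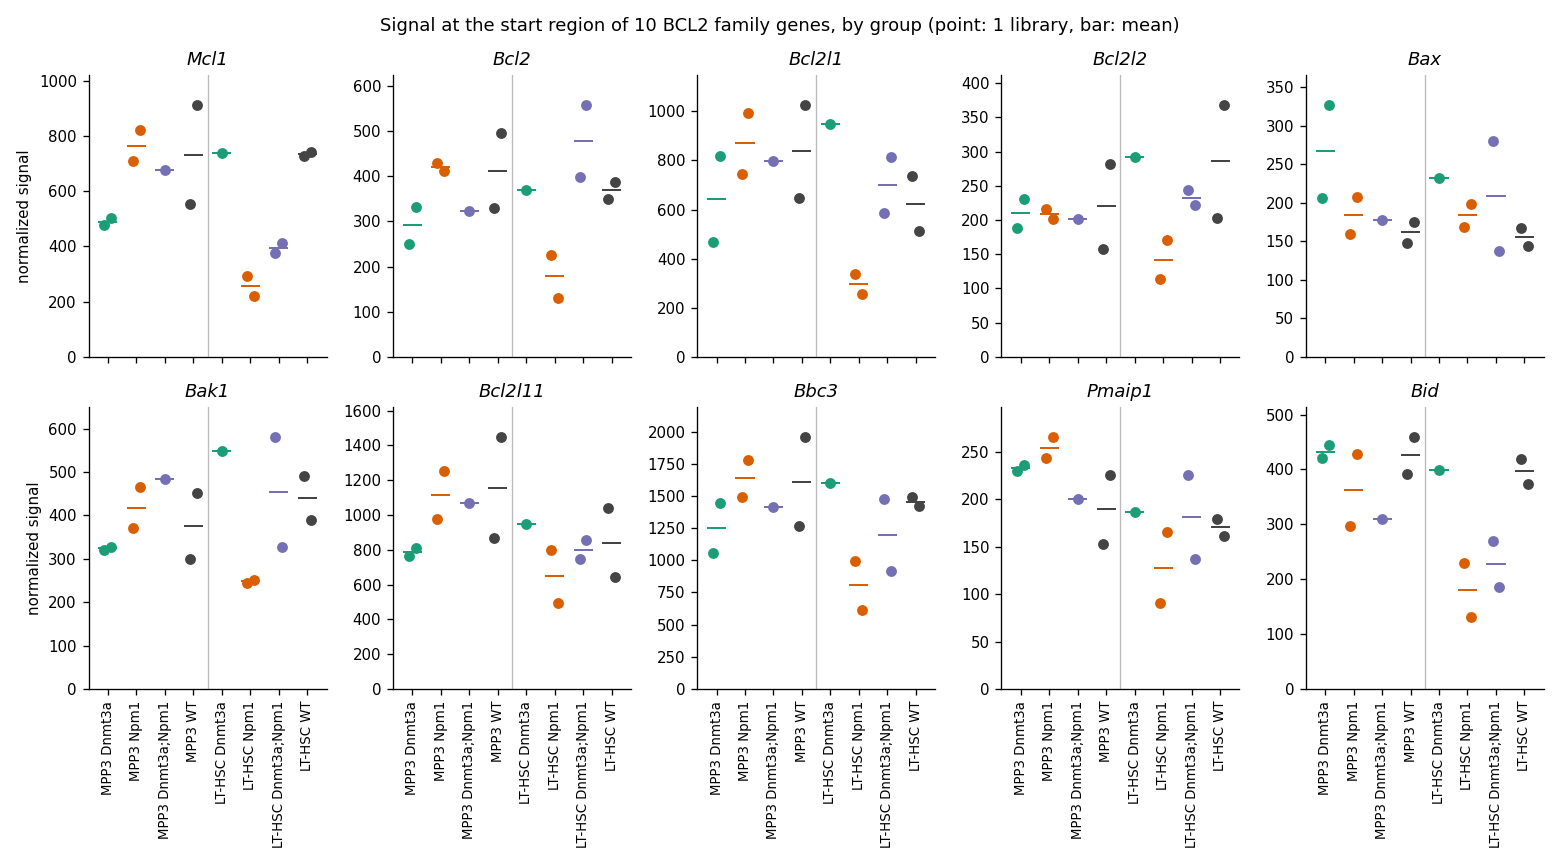
Normalized signal (y axis, 1 panel per gene) at the start regions of 10 BCL2 family genes in 8 groups, with MPP3 groups left of the grey line and LT-HSC groups right of it; each point is 1 library and each bar a group mean. With this TMM scaling, LT-HSC Npm1 points lie below LT-HSC WT points for 7 genes and above them for Bax, while under cyclic loess 4 of the 10 start differences are negative.

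In LT-HSC Npm1 libraries the start of Mcl1, which encodes a short-lived anti-apoptotic protein, had less signal than in WT (257.0 ± 51.5 against 733.4 ± 10.1, mean ± SD, n = 2 libraries each), as did an interior region of Bcl2l1, the gene of BCL-XL. Over the family 4 of 60 regions were called lower and 0 higher. The 4 regions were at anti-apoptotic genes, which hold 32 of the 60 regions: Mcl1 regions 3 and 2, Bcl2l1 region 3 and Bcl2l2 region 3, at the start of Pabpn1. With 4.32% of all tested regions called lower, 9 effector and 19 BH3-only regions are too few for their 0 calls to show a difference by role. All tested regions were called at 5.71% in either direction and at 4.32% as lower, so the 6.67% of member regions called lower was near that background. At an unadjusted p under 0.05 the counts were 15 of 60 members and 23.3% of all. Among regions with a mean of at least 100, 11.4% of 35 member regions were called lower, against 10.0% of all.

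At the Mcl1 start (region 3) the normalized signal was 293.4 and 220.6 in LT-HSC Npm1, against 726.3 and 740.5 in LT-HSC WT. Both Npm1 libraries lay far below both WT libraries. The log2 difference was -1.51 (SE 0.34, limma adjusted p = 0.0188). Region 2, centred at -4.6 kb from the start (chr3:95653472-95654856), had 63.93 and 102.4 in LT-HSC Npm1, against 293.0 and 302.2 in LT-HSC WT. These groups did not overlap either, and the log2 difference was -1.83 (SE 0.49, limma adjusted p = 0.0331). The differences varied along the locus. Region 7, at the start of Gm52627, had 372.1 and 378.1 in LT-HSC Npm1, against 457.3 and 446.3 in LT-HSC WT (log2 difference -0.27, SE 0.34, limma adjusted p = 0.681). Region 4, at the other end of the gene, had 447.5 and 271.8 in LT-HSC Npm1, against 452.6 and 490.3 in LT-HSC WT (-0.43, SE 0.37, limma adjusted p = 0.516). Whether regions of the locus differed from each other in response was not tested.

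Bcl2l1 region 3 lies inside the gene, 41.4 kb from its start (chr2:152788539-152790137). It had 145.9 and 157.6 in LT-HSC Npm1, against 451.4 and 448.3 in LT-HSC WT. The 4 libraries fell into tight pairs with a log2 difference of -1.54 (SE 0.37, limma adjusted p = 0.0229). The start of Bcl2l1 had 337.7 and 254.1 in LT-HSC Npm1, against 736.8 and 511.4 in LT-HSC WT, and was not called (-1.06, SE 0.37, limma adjusted p = 0.0851). Near Bcl2l2, which encodes BCL-W, the called region 3 (chr14:54893257-54895079) covers the start of Pabpn1, a gene for a poly(A)-binding protein. It had 409.8 and 220.6 in LT-HSC Npm1, against 793.5 and 709.5 in LT-HSC WT (-1.31, SE 0.38, limma adjusted p = 0.0435). The start of Bcl2l2 itself had 113.1 and 171.3 in LT-HSC Npm1, against 203.5 and 368.2 in LT-HSC WT (-0.96, SE 0.41, limma adjusted p = 0.157). The start of Bcl2, the founding member of the family, had 226.2 and 130.0 in LT-HSC Npm1, against 349.7 and 387.3 in LT-HSC WT. Its groups did not overlap, and it missed the threshold (-1.08, SE 0.37, limma adjusted p = 0.0815).

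**Figure D2:**
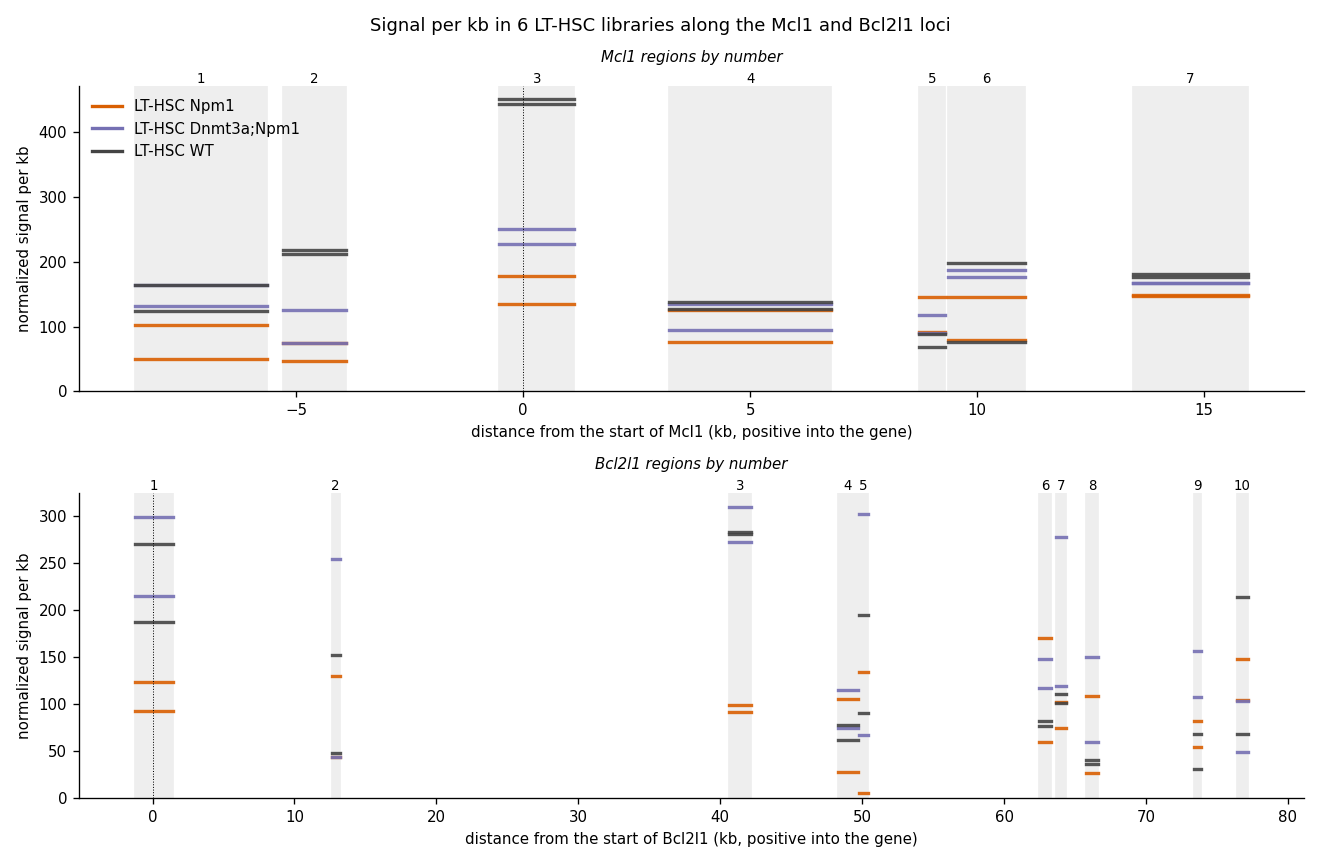
Normalized signal per kb (y axis) against distance from the gene start in kb (x axis) for the regions of Mcl1 and Bcl2l1, with 1 line per library in 6 LT-HSC libraries and grey blocks for the extent of each region. The LT-HSC Npm1 lines lie lowest at Mcl1 regions 2 and 3 and Bcl2l1 regions 1 and 3, and the LT-HSC Dnmt3a;Npm1 lines lie between Npm1 and WT at Mcl1 region 3 and with WT at Bcl2l1 region 3.

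The effectors gave 0 calls by limma among 9 regions, with 2 at an unadjusted p under 0.05. Bax was the exception among the starts: it had 168.8 and 198.9 in LT-HSC Npm1, against 167.2 and 144.1 in LT-HSC WT. The Npm1 values were marginally higher in both libraries, with a log2 difference of 0.23 (SE 0.41, limma adjusted p = 0.779) that turned to -0.35 with library-total scaling and to -0.58 with a filter at a mean of 20. Bak1, at a start shared with Ggnbp1, had 244.2 and 252.1 in LT-HSC Npm1, against 490.0 and 390.3 in LT-HSC WT (-0.81, SE 0.36, limma adjusted p = 0.182). Bax region 2, at the start of the ferritin gene Ftl1, had 496.7 and 429.4 in LT-HSC Npm1, against 765.5 and 792.5 in LT-HSC WT (-0.75, SE 0.33, limma adjusted p = 0.171). Neither call was made, although the libraries of the groups did not overlap at these regions.

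The BH3-only genes gave 0 calls by limma among 19 regions, with 3 at an unadjusted p under 0.05. The start of Bid, whose product links death receptors to mitochondria, had 229.5 and 132.0 in LT-HSC Npm1, against 418.7 and 374.2 in LT-HSC WT (-1.17, SE 0.37, limma adjusted p = 0.0623). Bbc3, the p53 target that encodes PUMA, had 996.7 and 616.5 in LT-HSC Npm1, against 1492 and 1420 in LT-HSC WT (-0.89, SE 0.34, limma adjusted p = 0.119). Both genes had every Npm1 library below every WT library. Bcl2l11, which encodes BIM, had 800.0 and 496.3 in LT-HSC Npm1, against 1040 and 642.4 in LT-HSC WT, with overlapping groups (-0.37, SE 0.35, limma adjusted p = 0.564). Under cyclic loess its difference was 0.88 (limma adjusted p = 0.0487), the opposite direction. Pmaip1, which encodes NOXA, had 90.16 and 165.4 in LT-HSC Npm1, against 179.5 and 161.1 in LT-HSC WT (-0.46, SE 0.41, limma adjusted p = 0.532).

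The strongest region away from the start of each remaining gene gave no call in LT-HSC Npm1 minus WT. Bbc3 region 1, centred at -10.6 kb from the start, had 101.6 and 102.4 in LT-HSC Npm1, against 274.8 and 179.1 in LT-HSC WT (-1.09, SE 0.43, limma adjusted p = 0.123). Bak1 region 5, beyond the gene, had 124.6 and 141.8 in LT-HSC Npm1, against 257.3 and 241.2 in LT-HSC WT (-0.89, SE 0.46, limma adjusted p = 0.252). Bcl2 region 2, just inside the gene, had 119.7 and 63.02 in LT-HSC Npm1, against 134.5 and 187.1 in LT-HSC WT (-0.84, SE 0.48, limma adjusted p = 0.306). At these 3 regions and at Bid region 2 (162.3 and 133.9 in LT-HSC Npm1, against 273.7 and 163.1 in LT-HSC WT) the Npm1 libraries lay below the WT libraries. The groups overlapped at Bcl2l11 region 2 (78.69 and 143.8 in LT-HSC Npm1, against 164.3 and 100.1 in LT-HSC WT) and at Pmaip1 region 3 (180.3 and 147.7 in LT-HSC Npm1, against 322.8 and 57.04 in LT-HSC WT). Just short of a call was Bcl2l2 region 1, in the flank of the gene, at 360.6 and 202.9 in LT-HSC Npm1, against 663.7 and 583.4 in LT-HSC WT (-1.19, SE 0.36, limma adjusted p = 0.0538).

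Differences between LT-HSC Npm1 and WT ran with the strength of a region across the whole table. The median log2 difference was -0.92 at the 10 member starts and -0.06 at the 50 other member regions. It was -0.69 at all 12126 regions at gene starts and -0.01 over all tested regions. Split by level, it was -0.46 at the 35 member regions with a mean of at least 100 and 0.35 at the 25 below, against -0.56 and 0.43 in all tested regions. By role, the medians were -0.27 over 32 anti-apoptotic regions, -0.34 over 9 effector regions and -0.05 over 19 BH3-only regions, but the effector and BH3-only medians turned to 0.13 and 0.03 under cyclic loess and to 0.54 and 0.13 with a filter at a mean of 100, while the anti-apoptotic median stayed negative (-1.07 to -0.13). The groups did not overlap at 46.7% of the 60 member regions, with 22 of them lower in Npm1, while 54.0% of all tested regions did not overlap and 29.1% were lower without overlap.

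**Figure D3:**
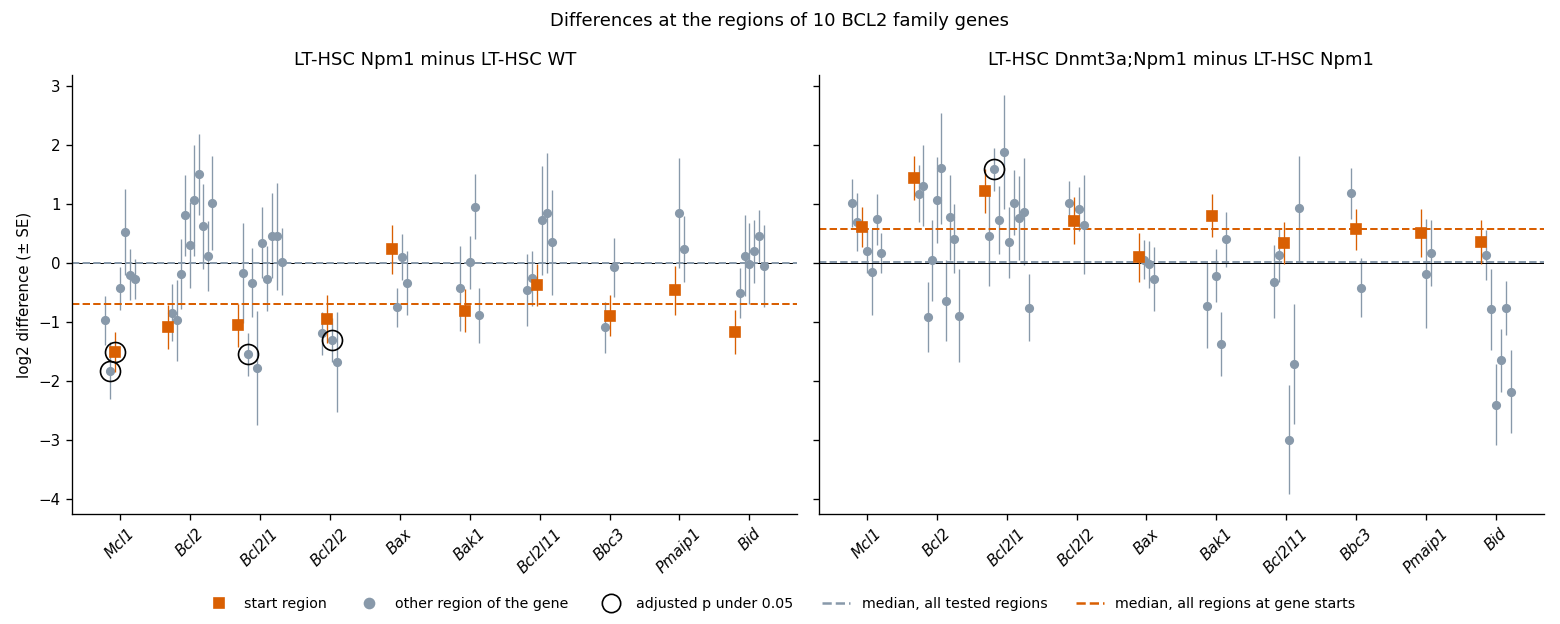
Log2 differences with their standard errors (y axis) at the 60 regions of the 10 genes (x axis), for LT-HSC Npm1 minus LT-HSC WT on the left and LT-HSC Dnmt3a;Npm1 minus LT-HSC Npm1 on the right; squares are start regions, circles other regions, rings called regions, and dashed lines the medians of all tested regions and of all regions at gene starts. Rings mark 4 regions on the left and 1 on the right, and 9 of the 10 squares lie below 0 on the left, against 4 of 10 under cyclic loess.

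The share of signal in tested regions moved with these values. Its Pearson correlation with log2 signal over 14 libraries, which share groups and normalization, was graded over the 10 starts. It was 0.88 at Bcl2l1, 0.87 at Mcl1, 0.86 at Bcl2l11 and at Bbc3, 0.79 at Bak1 and 0.77 at Bcl2. Lower values were 0.63 at Bid, 0.50 at Bcl2l2, 0.46 at Pmaip1 and -0.09 at Bax. With that share as a covariate the log2 difference at the Mcl1 start was -0.93 (limma adjusted p = 0.953) and 0 of all 59189 regions were called, with 2937 at an unadjusted p under 0.05. With cyclic loess in place of TMM scaling, the 9 negative start differences became 4, at Mcl1 (-0.47), Bid (-0.37), Bcl2l2 (-0.38) and Bcl2 (-0.26), and with scaling to the library total all 10 were negative, while the median of all regions moved to -0.57. Over all tested regions the calls were 826 higher and 2556 lower as reported, 99 and 24 under loess, and 464 and 8441 under the library total. The 4 called member regions kept a negative difference in every alternative and in every fit without 1 library, but not their calls. The Mcl1 start was not called without LT-HSC Npm1 B (adjusted p = 0.132), LT-HSC WT A (0.107) or LT-HSC WT B (0.0669) in limma. Mcl1 region 2 was not called without any 1 of LT-HSC Npm1 A (0.185), Npm1 B (0.114), WT A (0.168) or WT B (0.0971), nor was Bcl2l1 region 3 without Npm1 A (0.0719), Npm1 B (0.111), WT A (0.129) or WT B (0.0714). Bcl2l2 region 3 lost its call without LT-HSC Npm1 B (0.335), WT A (0.246) or WT B (0.104), and narrowly without either LT-HSC Dnmt3a;Npm1 or either MPP3 Npm1 library (0.0533 to 0.0558).

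**Figure D4:**
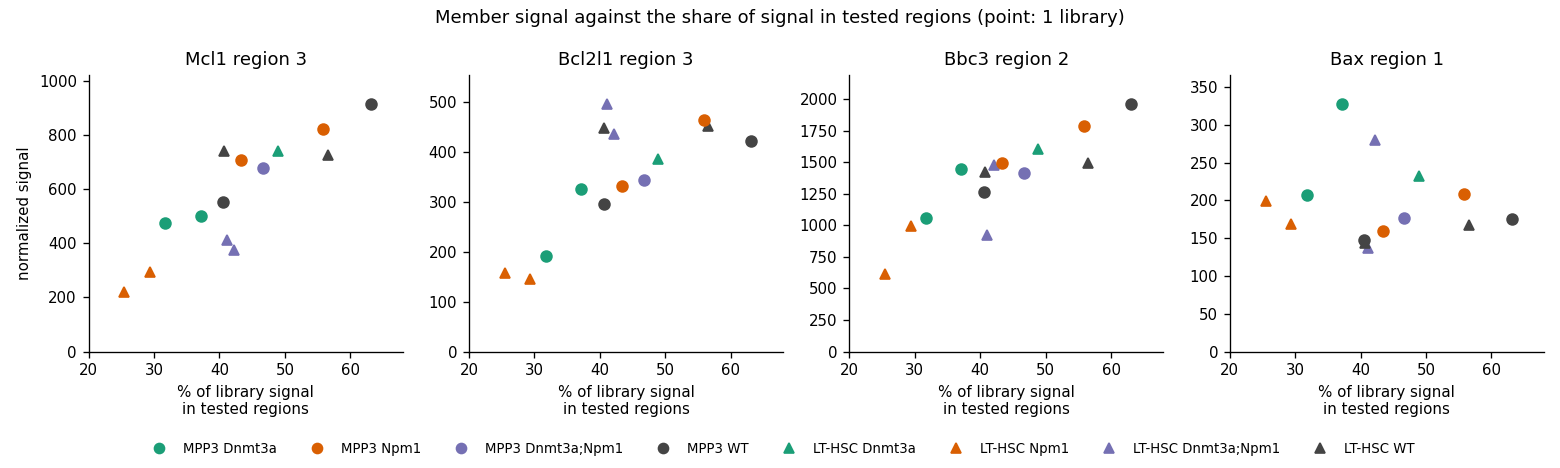
Normalized signal (y axis) at 4 member regions against the percentage of library signal in tested regions (x axis), with 1 point per library, colour for genotype and shape for cell type. The LT-HSC Npm1 libraries, at 29.41% and 25.49%, lie at the low end for Mcl1, Bcl2l1 and Bbc3, and Bax shows no such trend.

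Libraries of LT-HSC with both alleles were set against those with the Npm1 allele alone, which share the Npm1 libraries with the comparison above. Bcl2l1 region 3 was the 1 member region called of 60, and it was higher. It had 435.9 and 494.9 in LT-HSC Dnmt3a;Npm1, against 145.9 and 157.6 in LT-HSC Npm1 (log2 difference 1.59, SE 0.37, limma adjusted p = 0.0413). All tested regions were called at 1.13% in either direction and at 0.973% as higher, near the share of 1 in 60. At an unadjusted p under 0.05 there were 14 members and 19.1% of all regions. The Dnmt3a;Npm1 values overlapped those of LT-HSC WT (0.05, SE 0.37, limma adjusted p = 0.989). The interaction of the alleles at this region was 1.81 (SE 0.58, limma adjusted p = 0.709), in a contrast with 0.0% of regions called, 7.0% at an unadjusted p under 0.05 and 5 members among them. The call was lost in 7 of the 14 fits without 1 library. These were the fits without LT-HSC Dnmt3a;Npm1 B (0.321), LT-HSC Npm1 A (0.0944), LT-HSC Npm1 B (0.143), LT-HSC WT A (0.0721), LT-HSC WT B (0.0577), MPP3 Npm1 A (0.0597) and MPP3 Npm1 B (0.0640). It was also lost under 4 of 8 other settings, where the limma adjusted p reached 0.854.

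The starts of Bcl2 and Bcl2l1 came next. Bcl2 had 398.6 and 557.9 in LT-HSC Dnmt3a;Npm1, against 226.2 and 130.0 in LT-HSC Npm1 (1.44, SE 0.37, limma adjusted p = 0.0533). Bcl2l1 had 586.3 and 814.6 in LT-HSC Dnmt3a;Npm1, against 337.7 and 254.1 in LT-HSC Npm1 (1.23, limma adjusted p = 0.0797). At both starts the groups did not overlap. The Mcl1 start, in contrast, had 374.4 and 411.7 in LT-HSC Dnmt3a;Npm1, which lay closer to the 293.4 and 220.6 of LT-HSC Npm1 than to the WT values. Its log2 difference was 0.62 against LT-HSC Npm1 (SE 0.34, limma adjusted p = 0.329) and -0.90 against LT-HSC WT (SE 0.34, limma adjusted p = 0.595), so its place between the groups was not resolved. All 10 starts had positive differences, with a median of 0.60, against 0.58 over all regions at gene starts, but 5 of the 10 were negative under cyclic loess. Over all tested regions the calls were 576 higher and 90 lower, 1 and 3 under cyclic loess, and 1564 and 81 under the library total, which moved the median of all regions to 0.41. Median differences were 0.74 over the 32 anti-apoptotic regions (27 positive), -0.02 over the 9 effector regions and -0.18 over the 19 BH3-only regions, against 0.01 over all tested regions. Of the 32, 11 were at Bcl2 and 10 at Bcl2l1, and all were measured in the same libraries, so they are not independent. A difference between roles was not tested. The anti-apoptotic median was positive in every alternative. It ran from 0.25 over the 6 regions kept with gene starts only to 1.30 over 32 with a filter at a mean of 20. Such settings change the regions or the scale, so the range is not of 1 median. Under the library total the effector and BH3-only medians were 0.39 and 0.18, and with a filter at a mean of 20 they were 0.56 and 0.33. Groups did not overlap at 31 of the 60 regions, 12 of them lower in Dnmt3a;Npm1, against 48.8% and 22.3% of all tested regions.

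The most negative of the 60 differences from LT-HSC Npm1 were at interior regions of Bcl2l11 and Bid. Bid region 4, 3.7 kb into the gene, had 14.13 and 8.76 in LT-HSC Dnmt3a;Npm1, against 101.6 and 57.12 in LT-HSC Npm1, with 47.95 and 122.1 in LT-HSC WT. Bcl2l11 region 4, 11.0 kb into the gene, had 4.04 and 1.75 in LT-HSC Dnmt3a;Npm1, against 49.18 and 51.21 in LT-HSC Npm1, with 10.53 and 70.05 in LT-HSC WT. Both Dnmt3a;Npm1 libraries were the lowest of the 6 at each region. Against LT-HSC Npm1 the log2 differences were -2.40 at Bid region 4 (SE 0.69, limma adjusted p = 0.0714) and -3.00 at Bcl2l11 region 4 (SE 0.93, limma adjusted p = 0.0879), so neither was called. Against LT-HSC WT, Bid region 4 had a difference of -2.41 (SE 0.69, limma adjusted p = 0.508). Bid region 4 and Bcl2l11 region 4 had mean signals of 58.8 and 54.6, near the filter on low values. That filter used the mean over all libraries, so near it a region low in Dnmt3a;Npm1 is kept only if it is higher elsewhere. How far this selection shaped the differences was not tested. Against LT-HSC WT, 0 of 60 member regions were called by limma and 9 had an unadjusted p under 0.05, in a comparison that called 0.00338% of all tested regions and had 7.23% at an unadjusted p under 0.05. The groups did not overlap at 46.7% of member regions and 32.6% of all, Mcl1 and Bid being the starts where Dnmt3a;Npm1 lay below WT.

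The remaining genotype comparisons called 0 member regions by limma. In LT-HSC Dnmt3a minus WT, with 1 Dnmt3a library, 0.0% of all regions were called, 1.86% of regions and 0 members had an unadjusted p under 0.05, and the start differences ran from 0.01 (Mcl1, Bcl2, Bid) to 0.63 (Bcl2l1) and 0.57 (Bax). The Bcl2l1 start had 950.5 in LT-HSC Dnmt3a, against 736.8 and 511.4 in LT-HSC WT. Groups did not overlap at 27 of 60 member regions and 58.8% of all. The smallest p was at Bcl2l2 region 4, with 22.95 in LT-HSC Dnmt3a and a mean of 76.81 in LT-HSC WT (-1.56, SE 1.04). The region had a mean signal of 53.1, just inside the filter on low values, and how far that selection shaped its difference was not tested.

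In MPP3 Dnmt3a minus WT, 0.00338% of all regions were called, and 10.3% of regions and 5 members had an unadjusted p under 0.05. The Bax start had 206.9 and 327.2 in MPP3 Dnmt3a, against 147.8 and 175.8 in MPP3 WT, the largest positive start difference there (0.68). The Mcl1 start had 475.8 and 501.5 in MPP3 Dnmt3a, against 552.7 and 911.7 in MPP3 WT (-0.54, SE 0.34, limma adjusted p = 0.587). Mcl1 region 1, centred at -7.1 kb from the start, had 143.6 and 318.3 in MPP3 Dnmt3a, against 435.5 and 522.0 in MPP3 WT (-1.14, SE 0.41, limma adjusted p = 0.382). The groups did not overlap at any of these 3 regions in MPP3, as at 36.7% of member regions and 39.0% of all tested regions.

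The Npm1 allele in MPP3 gave values close to WT at the loci that were low in LT-HSC Npm1. The Mcl1 start had 708.5 and 821.2 in MPP3 Npm1, against 552.7 and 911.7 in MPP3 WT (0.10, SE 0.34, limma adjusted p = 1). Bcl2l1 region 3 had 332.1 and 463.1 in MPP3 Npm1, against 295.7 and 421.8 in MPP3 WT (0.15, SE 0.37, limma adjusted p = 1). The groups overlapped at both. The difference between the Npm1 effects in MPP3 and in LT-HSC was 1.62 at the Mcl1 start (SE 0.48) and 1.69 at Bcl2l1 region 3 (SE 0.52), each with a limma adjusted p of 0.339. That contrast called 0.0% of regions by limma and had 10.9% of regions and 6 members at an unadjusted p under 0.05, so an effect of the allele that differs between the cell types was not shown. MPP3 Npm1 minus WT itself called 0.0% of regions, with 0.115% of regions and 0 members at an unadjusted p under 0.05, and groups that did not overlap at 13.3% of members and 23.2% of all. Its smallest p was at the start of Pmaip1, with 243.4 and 265.3 in MPP3 Npm1 and 152.4 and 225.9 in MPP3 WT (0.45, SE 0.41, limma adjusted p = 1). MPP3 Dnmt3a;Npm1 minus WT also called 0.0%, with 0.482% of regions and 0 members at an unadjusted p under 0.05, and groups that did not overlap at 56.7% of members and 57.0% of all. In the comparison of MPP3 Dnmt3a;Npm1, which has 1 library, start differences ran from -0.45 at Bid to 0.39 at Bak1. The interaction of the alleles in MPP3 called 0.0% of regions, with 2.33% of regions and 1 member at an unadjusted p under 0.05.

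**Figure D5:**
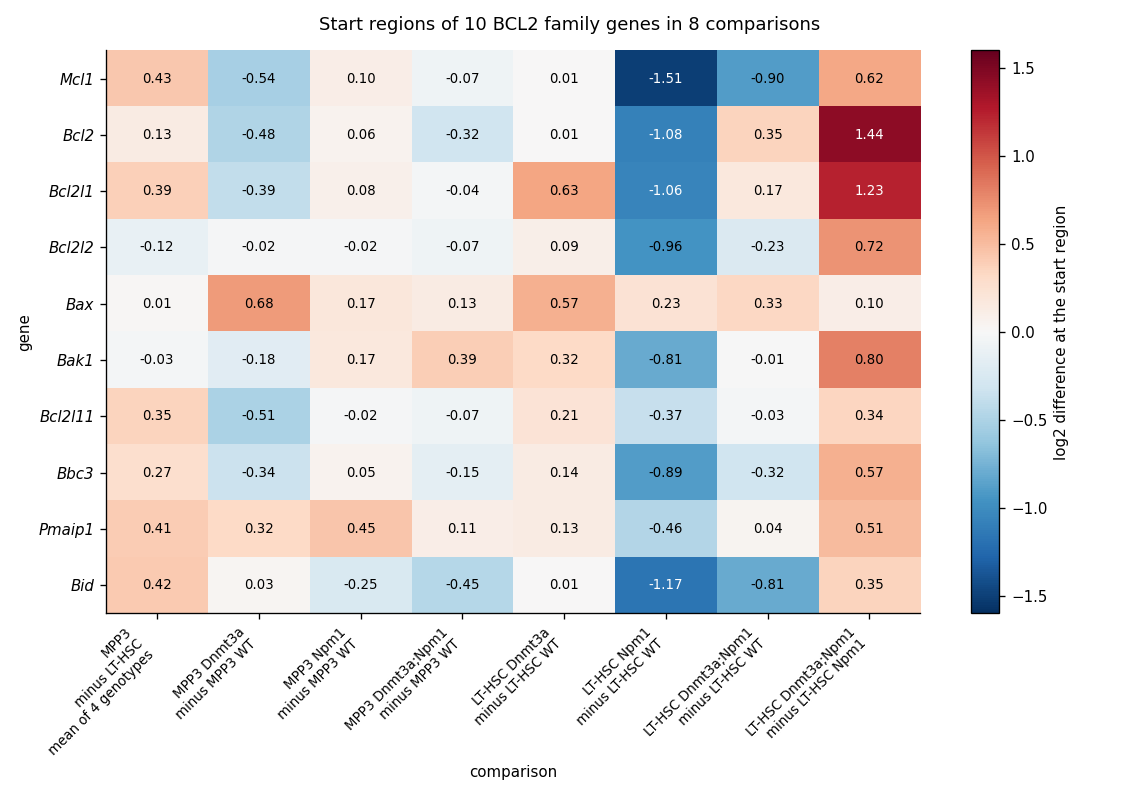
Log2 difference (colour and number) at the start region of each gene (rows) in 8 comparisons (columns); blue is lower and red higher in the first-named group. The strongest column is LT-HSC Npm1 minus LT-HSC WT, from -1.51 at Mcl1 to 0.23 at Bax with TMM scaling, and from -0.47 at Mcl1 to 0.88 at Bcl2l11 under cyclic loess.

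Between the cell types, with each genotype weighted equally, 0 of 60 member regions were called by limma, 4 had an unadjusted p under 0.05 (12.5% of all tested regions), and 0.145% of all tested regions were called. Those calls were 68 higher and 18 lower in MPP3, or 294 and 33 under the library total. The start differences ran from -0.12 at Bcl2l2 to 0.43 at Mcl1, with 0.42 at Bid, 0.41 at Pmaip1, 0.39 at Bcl2l1 and 0.35 at Bcl2l11. Of the 10, 8 were positive, against 5 under cyclic loess. The start of Mcl1 ranged from 475.8 to 911.7 with a median of 676.9 in MPP3 libraries, and from 220.6 to 740.5 with a median of 411.7 in LT-HSC libraries. In WT libraries alone its means were 732.2 in MPP3 and 733.4 in LT-HSC (-0.05, SE 0.34). The WT differences were 0.10 at Bid and 0.12 at Pmaip1, but 0.41 at Bcl2l1 and 0.45 at Bcl2l11. Over the 10 starts the WT median was 0.11, with 7 positive, against 0.31 with all genotypes. The higher Mcl1 start in MPP3 was thus not seen in WT libraries. The largest difference was at Bcl2l11 region 4, inside the BIM gene, with 54.48 to 102.8 in MPP3 libraries and 1.75 to 70.05 in LT-HSC libraries (1.67, SE 0.52, limma adjusted p = 0.188). Bid region 2, just inside the gene, had 211.2 to 416.0 in MPP3 libraries and 119.1 to 273.7 in LT-HSC libraries (0.74, SE 0.24, limma adjusted p = 0.200). Pmaip1 region 2 was the only member region at which the cell types did not overlap, with 56.96 to 91.44 in MPP3 libraries and 2.0 to 49.12 in LT-HSC libraries (1.34, SE 0.52, limma adjusted p = 0.295), while 0.64% of all tested regions did not overlap. Bcl2l11 region 4 and Pmaip1 region 2 had mean signals of 54.6 and 57.6, near the filter on low values. That filter used the mean over all libraries, so near it a region low in LT-HSC is kept only if it is high in MPP3. How far this selection shaped their differences was not tested. Of the 19 BH3-only regions, 15 had positive differences (median 0.27), against 15 of the 32 anti-apoptotic regions (median -0.02). Over all tested regions 52.4% were positive, with a median of 0.03, as were 64.0% at gene starts and 62.2% with a mean of at least 100. Regions of a role come from few genes in the same libraries, and a difference between roles was not tested. The BH3-only median difference was positive in every alternative (0.18 to 0.41), and the anti-apoptotic median turned to 0.10 under the library total and 0.13 with a filter at a mean of 20. Between WT libraries alone, 0.0% of regions were called by limma, with 5.33% of regions and 3 members at an unadjusted p under 0.05, and the groups did not overlap at 31.7% of members and 34.0% of all.

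Starts of other genes were ranked by their likeness to the Mcl1 start across the 14 libraries. The highest Pearson correlations with the Mcl1 start on the log2 scale were at the starts of Mrpl57 and Ska3 (0.967), 1700023D09Rik and Nxf1 (0.962), Dusp6 (0.959), Poc1b (0.958) and Blvrb (0.957). Over 12125 other regions at gene starts the median was 0.576, and 19.6% exceeded 0.8. Within the family the correlations ran from -0.15 at Bax to 0.88 at Bbc3. These libraries share groups, scaling and the share of signal in tested regions.

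The wider apoptosis machinery was followed in 205 regions of 5 lists. In LT-HSC Npm1 minus WT, 14 of these regions were lower and 1 higher by limma. Of all tested regions 4.32% were called lower, as were 10.0% of those with a mean of at least 100 and 14.1% of those at gene starts, so nothing particular to these lists is read from the count. Caspases and apoptosome genes held 7 of the 14 lower regions of 55, with a median of -0.37, among them Cycs, the cytochrome c gene (-1.89), Diablo (-1.58), Casp9, the initiator caspase of the apoptosome (-1.37), Casp2 (-1.29), Vdac2 (-1.29) and Htra2 (-1.25). Other BCL2 family genes held 3 of 44 (median -0.08): Bad, a BH3-only gene (-1.68), and 2 regions near Bcl2l12 (-1.61 and -1.24), at the starts of Bcl2l12 with Irf3 and of Prmt1. The inhibitor of apoptosis gene Birc2 (-1.79; 1 of 21, median 0.02) and the death receptor adaptor Fadd (-1.41; 1 of 39, median -0.15) were lower at their starts. Among 46 regions at p53 and stress genes (median -0.29), the start of Mdm2, the ubiquitin ligase of p53, was lower (-2.02), as was a region near Atf4 at the start of Rps19bp1 (-1.43), and a region at Foxo3, a stress-responsive transcription factor gene, was higher (3.01, adjusted p = 0.0163). Each of the 15 differences kept its sign in every alternative, though 9 of them held their calls in 4 or fewer. In LT-HSC Dnmt3a;Npm1 minus LT-HSC Npm1, 2 of the 205 regions were called higher by limma, near the 0.973% of all tested regions. They were the starts of Birc2 (1.62, adjusted p = 0.0376) and Fadd (1.57, adjusted p = 0.0384).

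Markers of other cell states were set beside these values. Over all tested regions in LT-HSC Npm1 minus WT the median was -0.01, with 5.71% called in either direction and 4.32% as lower. The median was 0.01 in LT-HSC Dnmt3a;Npm1 minus LT-HSC Npm1, with 1.13% called in either direction and 0.973% as higher. In LT-HSC Npm1 minus WT the 55 regions at MPP3 and early myeloid genes had a median of 0.65, with Ctsg (2.59) and Irf8 (2.88) higher and the region at Elane and Prtn3 lower (-1.22). The 91 regions at LT-HSC genes had a median of -0.14, with 2 regions lower, among them 1 at Meis1 (-1.53). Medians were -0.77 over 19 megakaryocyte regions, with Gp9 lower (-1.64), -0.55 over 10 erythroid regions, with Klf1 (-1.68) and Epor (-1.43) lower, 0.53 over 14 granulocyte regions, 0.14 over 32 lymphoid regions, with 2 regions at Cd3g lower, -0.83 over 2 mast cell and basophil regions, and -0.08 over 24 niche regions, with Pecam1 higher (2.30). In LT-HSC Dnmt3a;Npm1 minus LT-HSC Npm1 the medians were -0.51 for early myeloid, 0.03 for LT-HSC (with Meis1 higher, 1.74), -0.40 for granulocyte, -0.52 for lymphoid, 0.24 for erythroid, 0.51 for megakaryocyte, 0.71 for mast cell and basophil, and -0.47 for niche regions. Each marker region called in these comparisons kept its sign in every alternative but held its call in only 3 to 5 of them. Nothing particular to a marker list is read from the calls. The part of the markers in the differences at the BCL2 family was not tested.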

How the data were processed

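Per the file headers, 1 table gave each of 705361 mm10 regions a value in each of 14 libraries. The values are a signal: whole numbers that the authors scaled by library before deposit. In 8 libraries the low values leave gaps and in 6 they do not, so reads could not be recovered for all, count tests were not used and depth is unknown. Tools named without a role, per the submitters' processing notes, were HOMER 4.10, DiffBind 2.12.0, R 3.6.0 and edgeR 3.26.4, with build mm10. How reads were aligned, how regions were found and which scale factors, if any, were applied is not given in the sources used here.

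Groups were taken from the labels. Regions with a mean of at least 50 (59189) were divided by unweighted TMM factors (trims of 30% and 5%), and log2(value + 4) was fitted over 8 groups with limma 3.58.1 in R 4.3.3, with a trended, robust prior and Benjamini-Hochberg adjustment within each of the comparisons. Regions under an adjusted p of 0.05 are called. Fold changes on this scale understate changes of low regions. Groups of 1 library were assumed to vary like the others. The fit was tested on simulated data in which groups did not differ apart from regions changed on purpose. That simulation holds no difference in share of signal between libraries, so it cannot speak to the dependence on scaling. Normalized signal is value/TMM factor. Promoters came from RefSeq (GRCm38.p6).

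Named regions were the starts, called regions, the highest region away from each start, and the 2 of smallest p per comparison, and for other lists the called regions. Those of smallest p without a call are given where a comparison turns on them. The members and lists were chosen with earlier results of these data known, and 1 alternative (gene starts only) was added after seeing the data. Some called regions of these lists are not reported here.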

Additional observations from a re-analysis of the deposited data

How the results depend on the processing

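The family's results depend on how libraries are scaled. In LT-HSC Npm1 minus WT, 3382 regions in all and 4 members were called. The counts were 1218 and 1 with a row mean of at least 100, 1504 and 3 with at least 20, 8905 and 12 with the library total, 123 and 1 with cyclic loess, 0 and 0 with the enrichment covariate, and 578 and 1 at gene starts only. Members called were 2 with gene bounds not extended (0 kb) and 8 with 50 kb. The 1 member called under loess was the Bcl2l11 start, which turned to 0.88 (limma adjusted p = 0.0487) from a value not called, and the cause was not tested. In LT-HSC Dnmt3a;Npm1 minus Npm1, 666 in all and 1 member became 420 and 0 at a row mean of 100, 0 and 0 at 20, 1058 and 2 with a pseudocount of 16, 1645 and 2 with the library total, 4 and 0 with loess, 0 and 0 with the covariate, 322 and 0 at gene starts only, and 2 members with 50 kb. The 86 calls of MPP3 minus LT-HSC became 207 (pseudocount 16), 327 (library total), 6 (covariate) and 3 (gene starts). Between WT libraries the 0 calls became 2 (row mean 20), 1 (library total) and 1 (covariate), and for MPP3 Npm1 1 (covariate). For LT-HSC Dnmt3a;Npm1 minus WT the 2 calls became 1 (row mean 100, pseudocount 16, covariate) or 0 (loess, gene starts). For MPP3 Dnmt3a minus WT the 2 calls became 0 (row mean 100, pseudocount 1 or 16, covariate, gene starts), 10 (row mean 20) or 112 (library total). No member call was made or lost in these 5 comparisons.

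Without 1 library at a time, calls in all and among members were 148 to 4629 and 0 to 5 for LT-HSC Npm1 minus WT (0 members without LT-HSC Npm1 B, WT A or WT B), 0 to 2820 and 0 to 8 for LT-HSC Dnmt3a;Npm1 minus Npm1 (8 without Dnmt3a;Npm1 A), 1 to 371 and 0 for MPP3 minus LT-HSC, 0 to 59 and 0 between WT libraries, 0 to 585 and 0 to 1 for LT-HSC Dnmt3a;Npm1 minus WT (1 without Dnmt3a;Npm1 A), 0 to 536 and 0 to 2 for MPP3 Dnmt3a minus WT (2 without Dnmt3a B), 0 to 2 and 0 for the interaction in MPP3, and 0 in the others.

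The labels do not say whether the letters A and B pair the libraries. Differences of A and B correlated at -0.3 to 0.43 between groups, which does not settle it. With the letter as a replicate block, calls were 2642 in all and 3 members for LT-HSC Npm1 minus WT (Bcl2l2 region 3 was not called, limma adjusted p = 0.0544, against 0.0435 without the block), 328 and 1 for Dnmt3a;Npm1 minus Npm1, 0 for LT-HSC Dnmt3a;Npm1 minus WT and 0 for MPP3 Dnmt3a minus WT. With 1 or 2 libraries a group and unknown depth, small differences at weak regions are not detectable.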

Other observations

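The start regions' share of the summed member signal was 36.3% and 30.9% for LT-HSC Npm1, 41.3% and 36.3% for LT-HSC Dnmt3a;Npm1, and 40.6% and 39.0% for LT-HSC WT. For all tested regions the share at gene starts was 31.6% and 28.1% (LT-HSC Npm1), 41.1% and 41.7% (LT-HSC Dnmt3a;Npm1), and 45.9% and 41.1% (LT-HSC WT). The 60 member regions together had a normalized signal of 9654 and 8540 (LT-HSC Npm1), 12550 and 12598 (LT-HSC Dnmt3a;Npm1), and 14297 and 13189 (LT-HSC WT). Of all 14 libraries, LT-HSC Npm1 A and B had the lowest sums, and the next was MPP3 Dnmt3a A at 10712.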
